A study of Gallus gallus with 4 samples.

Results

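The 5 genes SCARA5, CD55, ACHE, TPPP3 and FABP3 were selected on their measured intensities: they were among the genes highest in articular-containing over purely transient cartilage of the embryonic chicken tibia at both stages studied. They are 5 of 13009 genes with a symbol on the array, and all probe sets whose platform annotation gives 1 of these symbols alone were taken, 11 of 27178. The study put 4 pooled samples of white leghorn embryos, with no agent named in the labels, on 1 Affymetrix chicken array each. Purely transient cartilage of the tibial epiphysis (TC), which bone later replaces, and articular cartilage that still carried some of the transient kind (TC+AC) were dissected at 2 ages. E12 is embryonic day 12, or Hamburger-Hamilton (HH) stage 38, and E14 is day 14, or HH stage 40, and TC is the reference tissue at each. TC+AC is thus a mixture, each group is 1 pool and 1 array, and no group has a replicate. Fewer cells of a type and less RNA per cell cannot be told apart in such samples.

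The surface of a synovial joint is made of articular chondrocytes, and a thin lining of synovial cells around it secretes the lubricating joint fluid. Both persist after the cartilage beneath has been replaced by bone. SCARA5 encodes a class A scavenger receptor that binds ferritin in mice, CD55 a lipid-anchored protein that speeds the decay of complement convertases and is known from the synovial lining of human joints, and ACHE the acetylcholinesterase that splits acetylcholine. TPPP3 encodes a cytosolic tubulin-binding protein known in mice from tendon sheath and synovial cells, and FABP3 a cytosolic fatty acid binding protein abundant in heart and muscle. The label "surface", if read as cell surface, thus does not cover the cytosolic products of TPPP3 and FABP3.

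The TC+AC array at E14 stood apart from the others. Its median deposited intensity was 13.1 against 20.6 to 23.1 on the other 3, and its ratio of 3' to 5' probe set intensity, a measure of RNA integrity and labelling, was 7.48 for beta-actin against 1.99 to 4.01. The ratio was 3.97 against 1.45 to 1.64 for EF1A, but for GAPDH it was close to the others, 1.59 against 1.18 to 1.55. Normalized values at E12 involve this array through the quantiles shared by all 4. Whether deposited intensities at E12 do is not known, since their scaling is not stated. The 541 probe sets for viruses gave the background of an array, their 95th percentile, at 15.7 to 21.8 as deposited. Cartilage markers matched the labelled tissue, with 13 to 15 of 15 listed genes above background on each array and COL9A1 and COL11A1 the brightest by mean log2 level. Their summed level was lower in TC+AC than TC, 15180 against 20017 at E12 and 28943 against 62997 at E14, with a median log2 difference of -0.37 and then -1.39. Of 14 tested cartilage genes MATN1 was lower in TC+AC (log2 -1.88 and -1.97, limma adjusted p = 0.044) and 0 were higher. Of all tested genes 0.73% were called lower and 0.743% higher. ACAN, COMP, MATN3 and SNORC were higher at E14 than at E12 (limma adjusted p from 0.0098 to 0.043), as were 0.141% of all tested genes. The stage calls of ACAN, COMP, MATN3 and SNORC were absent under alternatives given below. The part of these cartilage shifts in the values of the 5 genes was not tested.

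SCARA5, the ferritin receptor gene, was the brighter in TC+AC at either stage. On its brighter probe set, the deposited intensity was 29.9 in TC and 363.7 in TC+AC at E12, and 12.6 in TC and 115.3 in TC+AC at E14. Both TC values lay near background, that at E14 below it, and both TC+AC values lay far above it. After quantile normalization TC+AC was higher by 9.84-fold at E12 and, at E14, by at least 15.5-fold. Here and below, "at least" means that background stands in for a dimmer value, and the bound holds for this normalization only. Normalized background itself was 15.55 in TC and 24.575 in TC+AC at E14, a log2 difference of 0.66. The bounds at E14 do not remove that difference between the arrays. The log2 difference at E14 was 3.96 with background, but 3.19 as deposited and 2.64 with arrays scaled on hybridization controls. No background stood in for the dim TC value in the deposited and control-scaled differences. The second SCARA5 probe set had deposited intensities of 25.0, 99.9, 16.8 and 37.0 in the order TC E12, TC+AC E12, TC E14 and TC+AC E14. It gave the same order of tissues with smaller differences, 3.33-fold at E12 and, at E14, at least 4.60-fold.

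CD55, the complement regulator gene, had a single probe set. Its deposited intensity was 23.7 in TC and 216.6 in TC+AC at E12, and 6.8 in TC and 54.7 in TC+AC at E14. The TC value was just above background at E12 and below it at E14, while both TC+AC values were clear of it. After normalization TC+AC exceeded TC 7.40-fold at E12 and, at E14, by at least 7.10-fold.

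ACHE had 6 probe sets, of which 1 carried the pattern. On that probe set the deposited intensity was 31.3 in TC and 188.6 in TC+AC at E12, and 4.5 in TC and 63.2 in TC+AC at E14. TC+AC exceeded TC 4.95-fold at E12 and, at E14, by at least 8.34-fold. Of the other 5 ACHE probe sets, 4 were below background on every array, and the remaining one was above it in TC at E14 alone, at a deposited intensity of 29.7 against 13.2, 9.6 and 7.9 in TC E12, TC+AC E12 and TC+AC E14. The array therefore gives the tissue difference of ACHE from 1 probe set only, and the mean over all 6 gave a log2 tissue difference of 0.75 (E12) and 0.55 (E14) instead of 2.31 and 4.92.

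TPPP3, the tubulin-binding protein gene, also had a single probe set. Its deposited intensity was 36.8 in TC and 241.2 in TC+AC at E12, and 0.8 in TC and 69.9 in TC+AC at E14. The TC value at E14 was at the floor set for low values, the lowest position a probe set could take. TC+AC exceeded TC 5.40-fold at E12 and, at E14, by at least 9.30-fold.

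FABP3, the fatty acid binding protein gene, was the only one of the 5 above background on all 4 arrays, so its folds do not rest on background at either stage. Its deposited intensity was 123.4 in TC and 2474.4 in TC+AC at E12, and 156.1 in TC and 596.9 in TC+AC at E14. TC+AC was 17.0-fold higher at E12 and 8.73-fold higher at E14. FABP3 had the largest log2 difference of all 7805 tested genes at E12 (4.09) and a difference of 3.13 at E14. The E14 difference depended on scaling, at 1.94 as deposited and 1.38 with arrays scaled on hybridization controls.

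**Figure D1:**
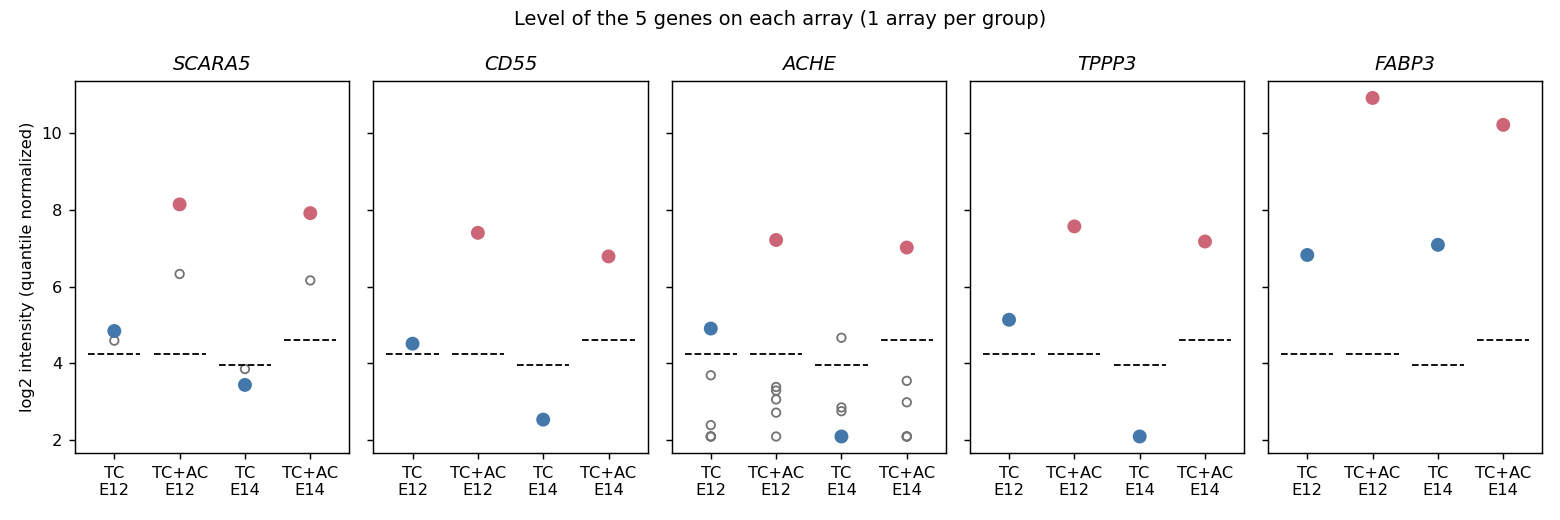
Log2 intensity after quantile normalization (vertical axis) of SCARA5, CD55, ACHE, TPPP3 and FABP3 on each of the 4 arrays (horizontal axis; blue TC, red TC+AC). Filled points are the brightest probe set of each gene, open grey points its other probe sets and dashed lines each array's background. The filled TC+AC points lie between 6.79 and 10.92 for CD55 at E14 and FABP3 at E12, and 4 of the 5 filled TC points at E14 lie below background.

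All 5 genes were at least 2-fold higher in TC+AC at both stages, as were 2.49% of tested genes. Their choice fixed this count, so it is a description only. At E12 alone 4.46% of tested genes were at least 2-fold higher and at E14 alone 20.3%. The median log2 difference of the 5 genes was 2.89 at E12 and 4.48 at E14, beside -0.0019 and 0.05 over all tested genes. The E14 median is SCARA5's difference against a TC value below background. With background for all dim values the median was 3.13, which is FABP3's difference, and on hybridization controls the median was 2.64. With values as deposited the differences of the 5 genes ran from 2.59 to 4.33 at E12 and from 1.94 to 4.09 at E14. Medians over all tested genes were then 0.20 and -1.09. At E14 the deposited TC values of SCARA5, CD55, ACHE and TPPP3 lay below background, and no background stood in for them. The direction of the 5 genes was the same without the normalization added here. They were chosen on measured intensities for this direction, so that is a description only. All 5 passed the filter on dim genes, but SCARA5, CD55, ACHE and TPPP3 were dim in TC and passed through their TC+AC values.

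In the order of the mean of both stages' log2 differences, SCARA5 stood at position 2 (3.89), TPPP3 at 3 (3.76), ACHE at 5 (3.62), FABP3 at 6 (3.61) and CD55 at 7 (3.57). Just outside stood LOC769486 above SCARA5 (4.46), ANKRD39 between TPPP3 and ACHE (3.62), and TMEM35B below CD55 (3.29). These positions rest on TC values below background at E14 for all but FABP3. With background in their place the means were 3.63 for SCARA5, 3.61 for FABP3, 2.86 for CD55, 2.82 for TPPP3 and 2.68 for ACHE. GSC (3.01), NBL1 (2.97), CDON (2.96) and IGFBP2 (2.88), above background on all 4 arrays, then exceeded CD55, TPPP3 and ACHE. At E12, where all 5 were above background in both tissues, FABP3 stood first, SCARA5 at position 4, CD55 at 8, TPPP3 at 17 and ACHE at 22.

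**Figure D2:**
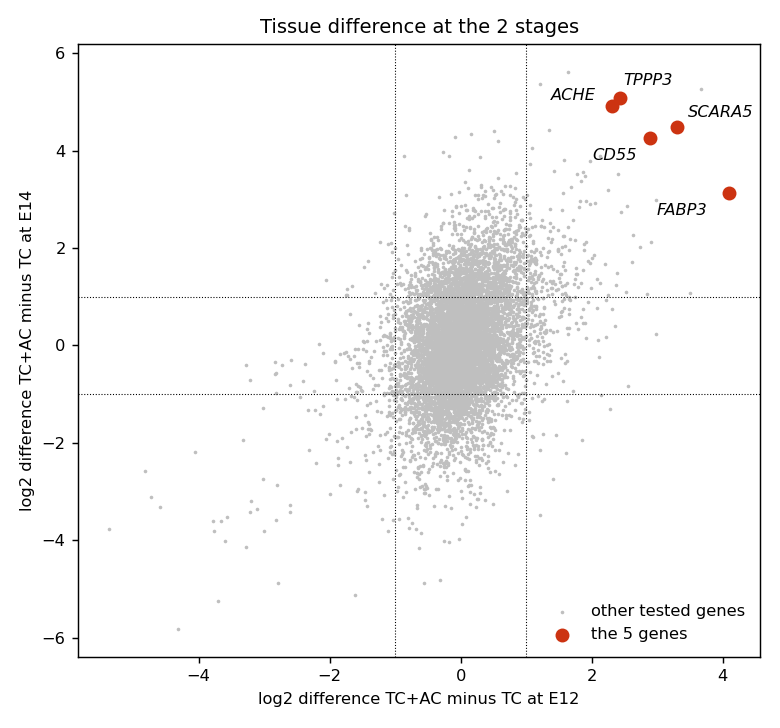
Log2 difference of TC+AC minus TC at E12 (horizontal axis) and at E14 (vertical axis) for 7805 tested genes, with the 5 genes in red and dotted lines at 2-fold. The 5 genes lie at 2.31 to 4.09 on the horizontal and 3.13 to 5.08 on the vertical axis, in the upper right corner, with FABP3 farthest to the right.

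The change from E12 to E14 was not used to choose the genes and was fitted in limma's additive model of tissue and stage over the 4 arrays. For SCARA5, CD55, ACHE and TPPP3 the fit includes a TC value below background at E14, and these genes passed the filter on dim genes through TC+AC, so it bears fully on FABP3 alone. Of the 5 genes 0 passed it, and 0.256% of all tested genes did, 0.141% higher and 0.115% lower at E14. In TC+AC the log2 differences of E14 minus E12 were -0.23 for SCARA5, -0.61 for CD55, -0.20 for ACHE, -0.39 for TPPP3 and -0.70 for FABP3. Their median was -0.39, and with values as deposited it was -1.79, beside -1.34 over all tested genes there. In TC the differences were -1.40 for SCARA5, -1.98 for CD55, -2.81 for ACHE and -3.04 for TPPP3, each ending below background at E14, and 0.26 for FABP3. Where background stood in for the dim value, the first 4 became -0.89, -0.56, -0.95 and -1.18.

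The fitted change was -0.82 ± 0.51 (SE) for SCARA5 (limma adjusted p = 0.88), -1.30 ± 0.51 for CD55 (adjusted p = 0.51) and -1.50 ± 0.55 for ACHE (adjusted p = 0.43). It was -1.72 ± 0.55 for TPPP3 (limma adjusted p = 0.30) and -0.22 ± 0.50 for FABP3 (adjusted p = 0.99). With background for the dim values the fits were -0.56, -0.58, -0.57 and -0.79 for SCARA5, CD55, ACHE and TPPP3, with limma adjusted p from 0.86 to 0.92. As normalized, 3 of the 5 genes had an unadjusted limma p under 0.05 in either direction (CD55, ACHE and TPPP3, all lower at E14). Of all tested genes 6.91% did. These 3 genes had TC values below background at E14, so their count is a description only. TPPP3 passed when arrays were instead centred on their medians (fitted change -2.02, limma adjusted p = 0.028). There 57 of 7805 tested genes were called lower at E14 and 11 higher. The median change over all tested genes was then -0.22 in TC and -0.55 in TC+AC. The TPPP3 call includes its TC value below background, so it too is a description only. In TC, 4 of the 5 genes were at least 2-fold lower at E14, with 14.1% of tested genes, and in TC+AC 0 of 5, with 7.92%. With background for dim values the count in TC was 1, TPPP3. None of the 5 was at least 2-fold higher in either tissue, where 8.3% of tested genes were in TC and 4.71% in TC+AC. Values below 0 were found for 4 of 5 in TC (56.4% of tested genes), for 5 of 5 in TC+AC (53.2%) and for 4 of 5 in both (30.4%).

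The tissue difference was larger at E14 than at E12 for 4 of the 5 genes, as for 51.3% of tested genes, and no test of this is possible with 1 array per group. Both differences were used to choose the 5 genes, so this count is a description and not a trait set against unselected genes. Large differences were more frequent at E14 over all tested genes, with 20.3% at least 2-fold higher in TC+AC against 4.46% at E12. The log2 excess at E14 was 1.18 for SCARA5, 1.36 for CD55, 2.62 for ACHE and 2.65 for TPPP3, and FABP3 had -0.97. With values as deposited SCARA5 and CD55 turned to -0.41 and -0.18, and scaled on hybridization controls to -0.70 and -0.48. Setting dim values to background gave an excess of 0.66 for SCARA5, -0.06 for CD55, 0.75 for ACHE and 0.79 for TPPP3, and 3 of the 5 were larger at E14.

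**Figure D3:**
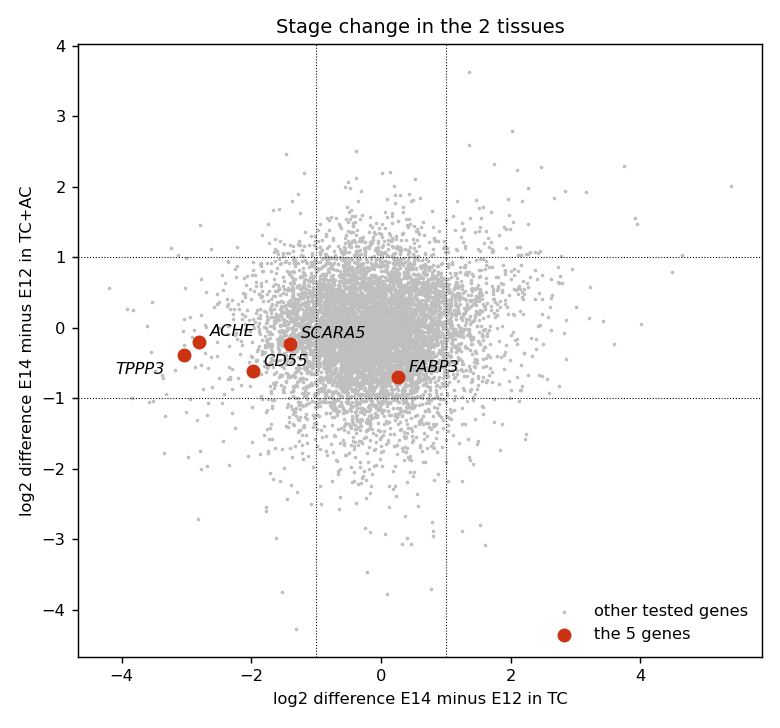
Log2 difference of E14 minus E12 in TC (horizontal axis) and in TC+AC (vertical axis) for 7805 tested genes, with the 5 genes in red and dotted lines at 2-fold. SCARA5, CD55, ACHE and TPPP3 lie to the left at -1.40 to -3.04 in TC and near the horizontal midline in TC+AC, and FABP3 lies at 0.26 and -0.70.

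Among themselves, ACHE and TPPP3 had the most similar profiles. Likeness was measured as the root mean square log2 difference over the 4 arrays after each gene's own mean was subtracted, and it was 0.13 for ACHE and TPPP3, which were both at the floor in TC at E14. SCARA5 and CD55 differed by 0.29, ACHE and CD55 by 0.33. FABP3 was the least similar to the others, at 0.63 from SCARA5, 0.79 from CD55, 1.10 from ACHE and 1.18 from TPPP3. With background in place of dim values, FABP3 lay 0.44 to 0.66 from the other 4. ACHE and TPPP3 stayed at 0.13, which this setting could not change, since both again shared the same value in TC at E14. Their deposited intensities there were 4.5 and 0.8, so the distance between ACHE and TPPP3 depends on the floor.

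Across all tested genes, the 2 closest to each of SCARA5, CD55, ACHE and TPPP3 were other genes of the 5. The closest gene outside the 5, named after its values were seen, was IGFBP2 for SCARA5 (0.53) and for CD55 (0.41), and RAB26 for ACHE (0.39) and TPPP3 (0.48). IGFBP2 encodes a binding protein for insulin-like growth factors and had log2 levels of 7.49, 9.47, 5.69 and 9.48 in the order TC E12, TC+AC E12, TC E14 and TC+AC E14. RAB26 encodes a small GTPase of vesicle transport and, like ACHE and TPPP3, was at the floor in TC at E14. The 2 genes closest to FABP3 were NBL1 (0.52), which encodes a secreted BMP antagonist, and the homeobox gene BARX1 (0.59). The tissue contrast that chose the 5 genes also enters this measure, so their likeness is a description.

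Genes next to the 5 in the genome were looked up in RefSeq's GRCg7b gene table, 3 protein-coding genes on each side of SCARA5, CD55, TPPP3 and FABP3. This was added after the data were seen, and the table gave no usable place for ACHE. Of 24 neighbours, 18 had a probe set and 11 were tested. A single one passed the tissue test, where 1.47% of tested genes passed in either direction. It was C4BPG, beside CD55 and named for the complement C4 binding protein (limma adjusted p = 0.022). C4BPG had log2 levels of 4.70 in TC and 6.41 in TC+AC at E12 and 3.04 and 5.63 at E14. Its limma adjusted p was 0.054 with a floor at the 40th percentile, 0.96 as deposited and 0.67 on hybridization controls. It was 0.70 with no filter on dim genes and 0.36 without the stage term. C4BPG was not tested when probe sets were averaged or the lowest 60% of genes left out. Its TC value at E14 was below background, as was that of CD55. The complement receptor gene CR2, the next gene on that side, was too dim for the test. CR2 differed between the tissues by log2 -0.20 at E12 and, with background in place of its dim TC value, by 2.19 at E14. C4BPM, the one after, had 0.23 and -0.58. SERINC2, the neighbour of FABP3 on one side, was above background in both TC+AC samples and in neither TC sample, with log2 levels of 6.04 and 6.10 in TC+AC. It was too dim for the test. ZCCHC17, on the other side of FABP3, had log2 differences of 0.02 and, with background in place of its dim TC+AC value at E14, -2.20.

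Genes that share a pathway or protein family with the 5 were followed in 6 lists. Of 75 tested list entries, 2 were higher in TC+AC and 0 lower by limma, where 0.743% and 0.73% of all tested genes passed in these directions. Over all genes that was 58 higher and 57 lower, but 7 and 25 with values as deposited, 58 and 94 with arrays centred on their medians and 1 and 25 when scaled on hybridization controls.

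In the complement list, CLU was the only one of 10 tested genes to pass. CLU encodes clusterin, a secreted chaperone that also restrains the terminal complement complex, and was 4.12-fold higher in TC+AC at E12 and 7.54-fold at E14 (log2 2.48 ± 0.50 SE, limma adjusted p = 0.0051). C1QB, a chain of the complement starter C1q made by macrophages, had log2 levels of 4.88 in TC and 7.88 in TC+AC at E14 but a difference of 0.26 at E12 (limma adjusted p = 0.15). The median of the 10 tested genes was 0.35 at E12 and 0.84 at E14.

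In the list of synovial lining and joint fibroblast genes, 1 of 20 tested genes passed. PI16, a peptidase inhibitor gene known from fibroblasts around vessels in mice and humans, was 2.67-fold higher in TC+AC at E12 (log2 2.50 ± 0.54 SE over both stages, limma adjusted p = 0.0093). At E14, where its TC value was below background, its log2 difference was at least 3.06. The fit includes that TC value, and it became 2.24 with background for dim values and 1.31 with probe sets averaged. PI16 was dim in TC at E14 and passed the filter on dim genes through its TC+AC values. It was not tested with the lowest 60% of genes left out. The calls of CLU and PI16, and those of PDPN, MATN1, RAMP2, SCX and FMOD given elsewhere, were absent with values as deposited, on hybridization controls, when probe sets of a gene were averaged, with no filter on dim genes and without the second model term. So were the stage calls of ACAN, COMP, MATN3 and SNORC. PDPN, the podoplanin gene, had -1.89 and -1.11 for tissue (limma adjusted p = 0.13) and was the single list gene to pass for stage, rising by 2.01 in TC and 2.79 in TC+AC (limma adjusted p = 0.031). HAS2, which makes hyaluronan, differed by log2 2.27 between the tissues at E12 and by -1.31 at E14. The list's median was 0.30 at E12 and 0.56 at E14.

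The protein families of the other genes held 0 calls for tissue. In the cholinergic list, 6 of 20 genes found on the array were bright enough to be tested. COLQ, the collagen tail that anchors acetylcholinesterase at the muscle synapse, had log2 differences of 0.24 and 0.92 (limma adjusted p = 0.68), and the agrin receptor gene LRP4 -1.42 and 0.09 (adjusted p = 0.63). CHAT, which makes acetylcholine, was above background in both TC samples and in neither TC+AC sample, and BCHE, the related cholinesterase, in TC at E14 alone; both were too dim for the test. Of 13 tested fatty acid genes, the fatty acid translocase gene CD36 had -2.38 and -0.38 (limma adjusted p = 0.21), and among the family members of FABP3, FABP5 had 0.74 and 1.36 (adjusted p = 0.36), FABP4 -0.03 and 1.53 and FABP7 0.36 and 0.07. FABP1 and FABP2 lay below background on all 4 arrays.

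Of 12 tested scavenger receptor and iron genes, the lipoprotein receptor gene SCARB1 had tissue differences of log2 1.54 at E12 and 0.91 at E14 (limma adjusted p = 0.24) and the iron sensor gene IREB2 -0.86 and -0.82 (adjusted p = 0.47). FTH1, the ferritin heavy chain gene, had 0.34 and -0.48. Of 14 tested microtubule genes, the tau gene MAPT had 2.09 and 0.77 (limma adjusted p = 0.17) and the tubulin gene TUBB6 -0.77 and -1.31 (adjusted p = 0.36). TPPP and TPPP2, the relatives of TPPP3, were below background on all 4 arrays.

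**Figure D4:**
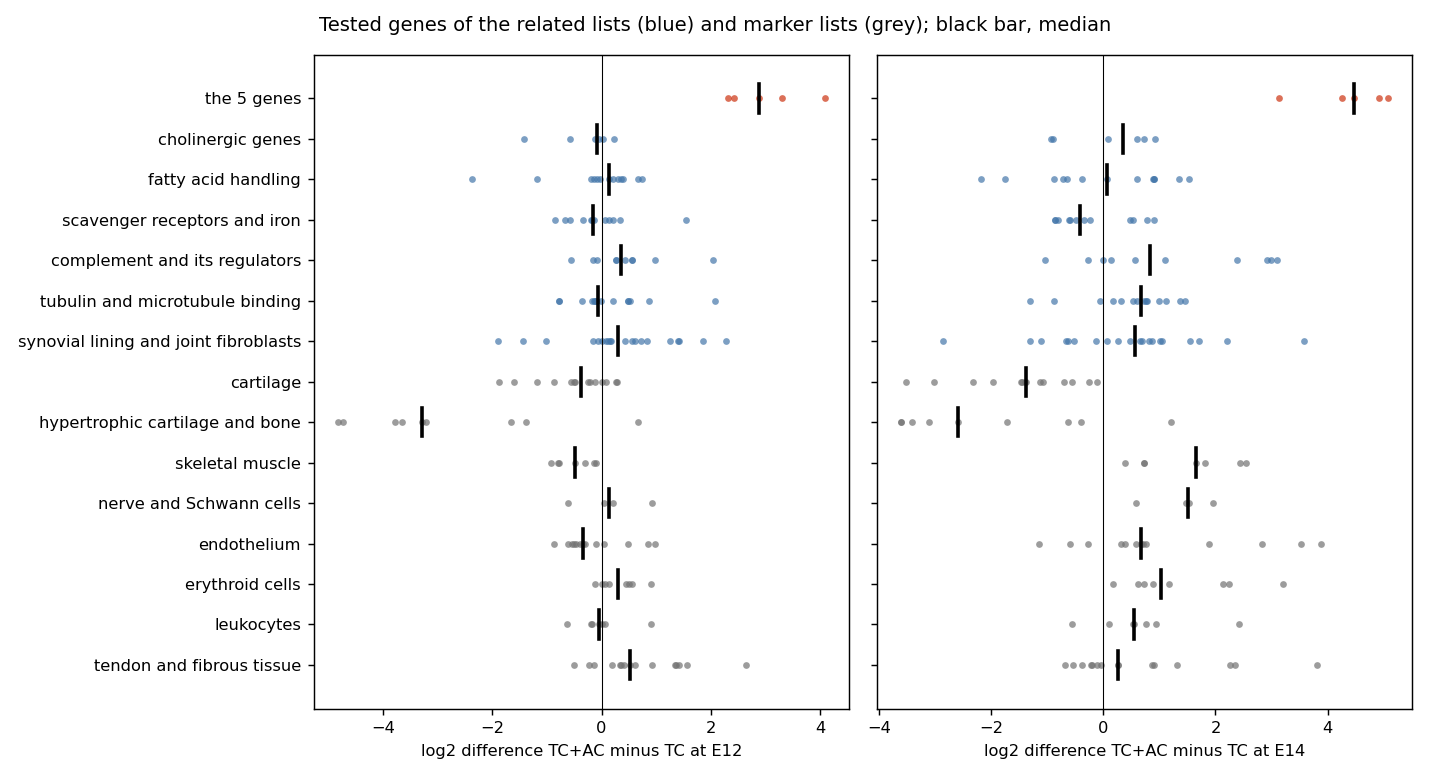
Log2 difference of TC+AC minus TC at E12 (left) and E14 (right) for the 5 genes (red) and for the tested genes of 6 related lists (blue) and 8 marker lists (grey), 1 point per gene, with the median as a black bar. The 5 genes have medians of 2.89 and 4.48, the blue medians lie between -0.16 and 0.35 at E12 and between -0.41 and 0.84 at E14, and the hypertrophic and bone list lies lowest at -3.28 and -2.59.

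Markers of other tissues a dissection can carry were followed beside the 5 genes. Tendon and fibrous genes were above background for 15 to 16 of 16 on each array, and their summed level was 36203 in TC and 39617 in TC+AC at E12 and 36463 and 41668 at E14. In that list SCX, the tendon transcription factor gene, was 2.97-fold and 13.98-fold higher in TC+AC (limma adjusted p = 0.0046) and FMOD, the fibromodulin gene, 6.21-fold and 4.82-fold (adjusted p = 0.0051), 2 of 15 tested genes. Of all tested genes 0.743% were called higher in TC+AC. The most abundant of the list, COL1A1 and COL1A2, differed by log2 -0.23 and -0.50 at E12 and by -0.11 and -0.38 at E14. The part of tendon or fibrous tissue in the values of the 5 genes was not tested.

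Skeletal muscle genes, which bear on FABP3 and ACHE, were lower in TC+AC in sum at E12 and higher at E14. The median log2 difference of the 7 tested genes was -0.48 at E12 and 1.66 at E14. Their summed level was 1503 in TC and 1117 in TC+AC at E12, and 307.4 and 860.3 at E14, with 10, 12, 6 and 7 of 18 genes above background in the order TC E12, TC+AC E12, TC E14 and TC+AC E14. The muscle regulator genes MYOG and PAX7 were below background on all 4 arrays, and MYOD1 on both E14 arrays. MYH1D, a myosin gene outside this list, had log2 levels of 6.15 and 6.69 in TC+AC at E12 and E14. It lay below background in TC at both stages. ACTA1 and TNNC1, the brightest, had log2 differences of -0.30 and -0.79 at E12 and 2.44 and 0.72 at E14. Nerve and Schwann cell genes, which bear on ACHE, had 6 to 9 of 15 genes above background and a summed level of 897.4 and 1446 at E12 and 1259 and 2018 at E14. The median log2 difference of the 4 tested nerve and Schwann cell genes was 0.13 at E12 and 1.51 at E14. Most of the summed level came from PMP22, which other cells also make (log2 differences of 0.93 and 0.58). NEFH, the next in level, had 0.05 and 1.53, and NEFM, ELAVL4 and SYT1 were below background on all arrays. The part of muscle or nerve in the values of FABP3 and ACHE was not tested.

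Vessel and blood genes had similar summed levels in the tissues at E12 and higher ones in TC+AC at E14. The summed level was 1411 and 1277 for endothelium at E12 and 749.2 and 1356 at E14 (14, 14, 11 and 12 of 15 genes above background), with CDH5 at log2 differences of -0.55 and 0.77 and FLI1 at 0.98 and 0.71. RAMP2, a vessel receptor subunit gene below background in TC at E14, was the 1 of 13 endothelial genes to pass (log2 0.84 and at least 2.98, limma adjusted p = 0.042). The fitted log2 difference of RAMP2 was 2.19, and 1.91 with background for dim values. RAMP2 was not tested with the lowest 60% of genes left out. Sums were 18087 and 19258 for erythroid genes at E12 and 9186 and 18580 at E14, and 1330, 1375, 674.4 and 1098 for leukocyte genes. Of 9 erythroid genes 9, 9, 9 and 8 were above background, and of 13 leukocyte genes 12, 12, 10 and 7. HBA1 had 0.01 and 1.17, CD74 -0.04 and 0.55 and CTSS 0.90 and 2.42. Hypertrophic and bone genes went the other way, with 5 of 9 lower in TC+AC and 0 higher and summed levels of 10485 and 1131 at E12 and 7116 and 1171 at E14. Of all tested genes 0.73% were called lower in TC+AC and 0.743% higher. COL10A1 had log2 differences of -3.65 and -3.61. The part of vessels, blood or muscle in the E14 values of the 5 genes was not tested.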

How the data were processed

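The deposited table held linear intensities, 1 value for each of 38535 probe sets on 4 arrays; the labels name 5 µg of RNA for each. How the authors summarized, background-corrected or scaled the deposited intensities is not stated in any label or header used here. Leaving out 96 control probe sets, the values were quantile normalized, floored at the 20th percentile (4.275) and taken to log2 (R 4.3.3, limma 3.58.1; figures with Python 3.11.15 and matplotlib 3.10.9). The probe set with the highest mean stood for a gene, and the 40% of genes with the lowest means were left out, leaving 7805. limma's lmFit and eBayes fitted tissue and stage as additive terms, with Benjamini-Hochberg adjustment at 0.05. Each gene keeps 1 residual degree of freedom and the shared prior has 27.0, so p-values rest largely on that prior and hold nothing on spread between embryos. The number of arrays limits the precision. The stage fit was also run on simulated normal values with variances drawn from its own prior. These values had no floor or background, so the run does not bear on genes below background in TC. Members and lists were chosen with earlier results of these data known, and the members' tissue differences were used to choose them and carry no test. Of 283 list entries, 234 were found by symbol. Named are the 5 genes, the 2 genes closest to each in profile, those beside them in rank, related list genes past a test, the 2 with the largest mean tissue difference in each related list and the 2 brightest in each marker list; others were named after their values were seen. Alternatives changed the scaling, floor, dim filter, probe set rule, model terms and variance prior.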

Additional observations from a re-analysis of the deposited data

Results flagged for a closer look

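From E12 to E14, FABP3 had log2 differences of opposite sign in the 2 tissues, 0.26 in TC against -0.70 in TC+AC, with 1 array each. The difference between the tissues was not tested, since the design leaves no residual for it.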

How the results depend on the processing

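No paired analysis was possible because each group is 1 array. The 5 genes were at least 2-fold higher in TC+AC at both stages under each alternative that recomputed it except the mean of probe sets, which left 4 (all but ACHE). The choice of the 5 genes for this contrast makes that count a description only. Their median E14 tissue difference became 3.19 with values as deposited, 2.64 on hybridization controls, 3.39 on the mean of probe sets, 3.25 with a floor at the 40th percentile and 3.13 with background for dim values (added after seeing the data). In these settings their median excess at E14 over E12 became -0.18, -0.48, 0.87, 0.85 and 0.66, and 0.77 with arrays centred on medians; singly, SCARA5 turned to -0.41 as deposited and -0.70 on controls, CD55 to -0.18, -0.48 and, with background, -0.059, and ACHE to -0.20 on the mean of probe sets. The median stage change in TC became -1.35 on controls, -1.07 on the mean of probe sets and at the 40th percentile floor, and -0.89 with background; in TC+AC it became -1.79 as deposited, -0.99 median-centred and -1.63 on controls. The count of the 5 past the stage test was 1 when median-centred (TPPP3, with a TC value below background at E14) and 0 otherwise. With the lowest 60% left out only FABP3 was tested. Over all genes, calls for tissue (higher, lower) were 7 and 25 as deposited, 1 and 25 on controls, 12 and 17 on the mean of probe sets, 0 and 0 with no dim filter (715 at an unadjusted p under 0.05 in limma), 3 and 9 without the stage term and 128 and 89 with a variance trend. They were 94 lower median-centred and 140 higher with the lowest 60% left out. Calls for stage were 0 and 0 as deposited, on controls, with no filter and without the tissue term (370, 77, 567 and 235 at an unadjusted p under 0.05), 1 and 0 on the mean of probe sets and 18 and 17 with a trend. They were 57 lower median-centred, 15 at the 40th percentile floor and 17 with the lowest 60% left out. With background for dim values, calls were 145 and 95 for tissue and 22 and 24 for stage. Related list genes called higher were 0 as deposited, on controls, on the mean of probe sets, with no filter and without the second term. The causes were not tested. Background limits 4 of the 5 genes in TC at E14, where the differences with background are lower bounds under quantile normalization only. On hybridization controls the E14 difference fell below that bound for SCARA5 (2.64 against 3.96) and CD55 (2.45 against 2.83). As deposited it did so for SCARA5 (3.19). Neither setting put background in place of the dim TC values.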
